A study of Mus musculus with 2 samples.

Results

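The myosin heavy chains are the motor subunits of myosin, and 40 of the 30385 gene entries in the table belonged to them. They were chosen by symbol alone, as every entry named Myh or Myo followed by a number. By name, 10 were sarcomeric chains, 1 was the smooth muscle chain Myh11, 3 were nonmuscle chains and 26 were unconventional myosins. Transcript 5′ ends were sequenced from hearts of MHC403/+ mice, which develop hypertrophic cardiomyopathy from a missense allele of Myh6 (as this model is known, since the labels name only the myosin heavy chain), and of wild-type (WT) mice. Mice of either genotype were of the 129/SvEv strain, were aged 8 to 16 weeks, and were given cyclosporine A (CsA, a calcineurin inhibitor) subcutaneously at 15 mg/kg, 2 times a day over 2 weeks. Each genotype was 1 library made from pooled animals (number not given in the sources used here). No difference below therefore has a replicate check or a test, and no library without CsA was sequenced. The table does not separate alleles, so the myosin reads do not check the genotype labels.

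Myosin heavy chains bind actin and hydrolyse ATP to move along it. The conventional chains (Myh genes) pair through long coiled-coil tails into filaments, the thick filaments of the sarcomere in striated muscle and smaller bipolar filaments in smooth muscle and nonmuscle cells. In mouse heart the alpha chain Myh6, a fast motor, is the main adult ventricular form, while the slower beta chain Myh7 is the fetal form known for its return in stressed hearts. The unconventional chains (Myo genes) carry vesicles, bend membranes or cross-link actin and do not build thick filaments.

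The sarcomeric genes are close relatives, which limits how reads can be told apart between them. A stretch of 60 coding bases shows this. In Myh4 (exon 14, chr11:67246426-67246485, plus strand), Myh6 (exon 14, chr14:54959857-54959916, minus strand), Myh7 (exon 16, chr14:54988361-54988420, minus strand) and Myh9 (exon 13, chr15:77786546-77786605, minus strand) of GENCODE M21 on GRCm38, it reads as follows, with capitals at bases that differ from Myh4.
Myh4: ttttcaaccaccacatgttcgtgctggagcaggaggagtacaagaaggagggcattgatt
Myh6: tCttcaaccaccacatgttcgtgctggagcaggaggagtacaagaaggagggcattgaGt
Myh7: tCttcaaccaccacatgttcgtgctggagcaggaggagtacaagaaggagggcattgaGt
Myh9: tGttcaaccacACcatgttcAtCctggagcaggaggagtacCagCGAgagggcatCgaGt
The cardiac genes Myh6 and Myh7 were identical here and differed from the skeletal gene Myh4 at 2 bases, while the nonmuscle gene Myh9 differed at 11. Over the whole transcripts, 29.3% of the 36-base words of Myh6 occurred in Myh7, and the longest run they shared was 245 bases. The 6 skeletal muscle genes shared 0.116% to 0.502% of their words with Myh6 or Myh7 exactly, and 3.90% to 5.89% when up to 2 mismatches were allowed. No word in the first 200 bases of the skeletal genes matched Myh6 or Myh7, nor did Myh6 and Myh7 match each other there. The assay enriches 5′ ends, but where the counted reads fell in these transcripts is not known. The first 200 bases therefore cannot show whether reads were shared. Myh7b had no exact shared word, the nonmuscle genes had none with Myh6 or Myh7, and the unconventional genes had none with any other myosin.

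Reads of all myosin heavy chains together made up 1.61% of the MHC403 library and 3.49% of the WT library. The libraries held 5468677 reads for MHC403 and 5481123 for WT. Sarcomeric chains held 89.6% of myosin reads (exact 95% interval 89.4 to 89.8) in MHC403, against 97.4% (97.4 to 97.5) in WT. Unconventional chains held 6.73% (6.57 to 6.90) in MHC403, against 1.77% (1.71 to 1.83) in WT. Nonmuscle chains held 3.45% (3.33 to 3.57) in MHC403, against 0.708% (0.671 to 0.747) in WT. The sarcomeric share was thus lower in MHC403 and the shares of both other large classes higher, by more than counting error. These intervals, and all those below, are exact and cover counting error only and not variation between animals, pools or amplifications. With Myh6 and Myh7 set aside, sarcomeric chains were 7.21% of the remaining myosin reads in MHC403 and 30.3% in WT, nonmuscle chains 30.9% and 19.3%, and unconventional chains 60.3% and 48.1%. These are shares of reads and not of molecules. Dividing by transcript length moved the sarcomeric share to 90.6% in MHC403 and 97.8% in WT. Reads of 5′ ends need not rise with transcript length, so this does not turn them into shares of molecules.

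**Figure D1:**
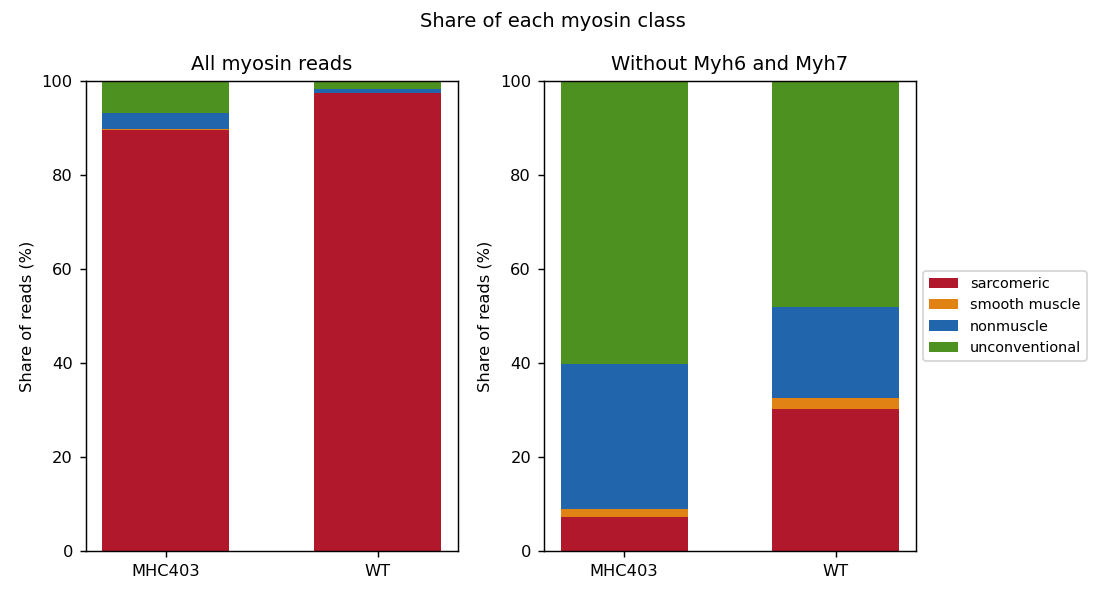
Stacked bars give the share (%) of each myosin class in the MHC403 and WT libraries, 1 library each, among all myosin reads (left) and among myosin reads other than those of Myh6 and Myh7 (right). The sarcomeric share is 89.6% in MHC403 and 97.4% in WT on the left, and 7.21% and 30.3% on the right.

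Summed over each class and scaled to library totals, sarcomeric reads were 2.35-fold lower (2.33 to 2.37) in MHC403, with 79043 reads in MHC403 and 186347 in WT. Nonmuscle reads were 2.25-fold higher (2.11 to 2.40), with 3041 in MHC403 and 1354 in WT. Unconventional reads were 1.76-fold higher (1.69 to 1.84), with 5939 in MHC403 and 3377 in WT. All ratios are of MHC403 to WT, each scaled by its library total. Of the 40 genes, 26 reached 50 reads in one of the libraries, which is the minimum for a gene to count as measured here, and 14 did not, 6 of them with 0 reads in both libraries. Among the 26, 8 were at least 2-fold higher in MHC403, 9 at least 2-fold lower and 9 within 2-fold. Over all 9507 measured entries the same rule called 26.1% higher and 2.43% lower, against 30.8% and 34.6% of the measured myosins. The median log2 ratio was 0.23 over the measured myosins and 0.57 over all measured entries. The share called higher was near that of all entries, and the share called lower was above it. The 9 lower genes were the 9 measured sarcomeric chains, and the 8 higher genes were nonmuscle or unconventional.

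**Figure D2:**
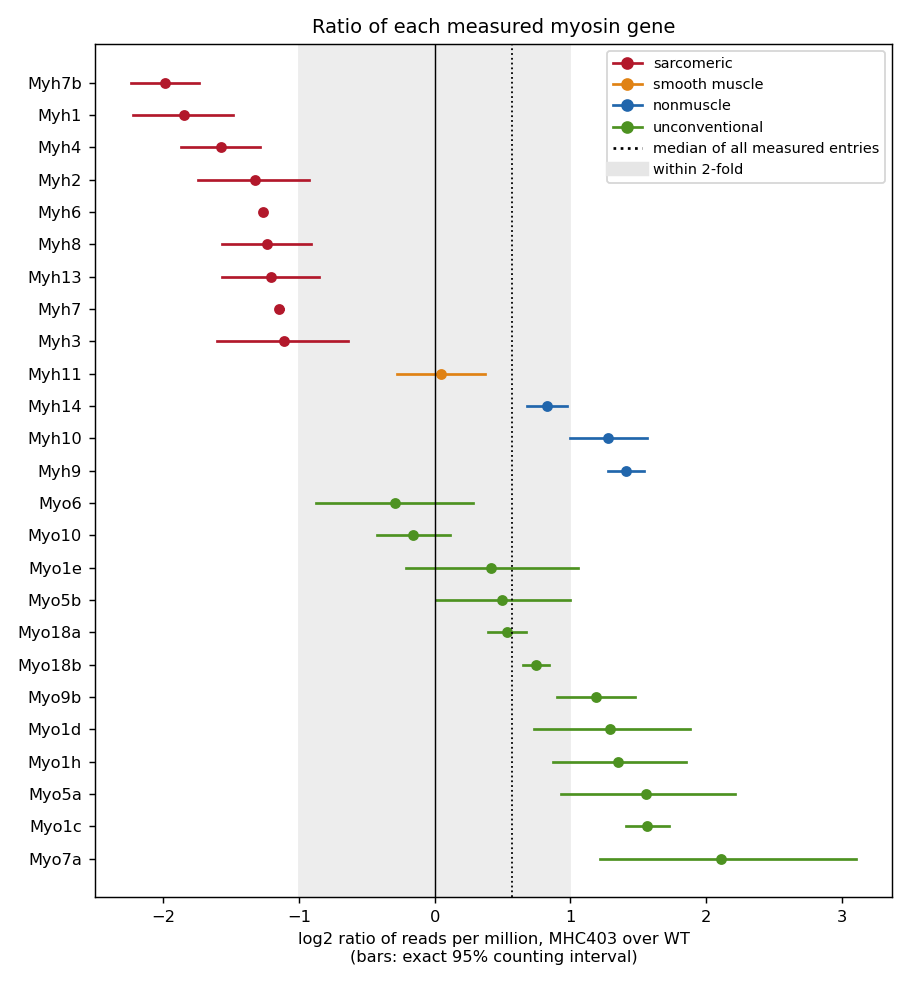
Points give the log2 ratio of RPM (MHC403 over WT) of the measured myosin genes reported here, by class, bars the exact 95% counting interval, the dotted line the median of all 9507 measured entries at 0.57 and the shaded band the range within 2-fold. The points of all 9 measured sarcomeric genes lie below the band, though the intervals of Myh2, Myh8, Myh13 and Myh3 reach into it, as do those of Myh10, Myo9b, Myo1d, Myo1h and Myo5a from above.

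This split depended on scaling. Median-of-ratios scaling lowers every log2 ratio by 0.55 and puts the median of all measured entries at 0.02. With it, 3 myosins were at least 2-fold higher (Myo7a at 2.95-fold, Myo1c at 2.03-fold and Myo5a at 2.01-fold) and 10 at least 2-fold lower, among them the 9 sarcomeric genes. Over all measured entries it called 10.9% higher and 7.59% lower. TMM scaling gave 3 higher and 10 lower myosins, against 10.9% and 7.55% of all entries. Totals without mitochondrially encoded entries gave 6 higher and 9 lower, against 16.1% and 4.21%. Sarcomeric reads were lower under each of the 4 scalings tried and nonmuscle and unconventional reads higher, but the size of each ratio moved.

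**Figure D3:**
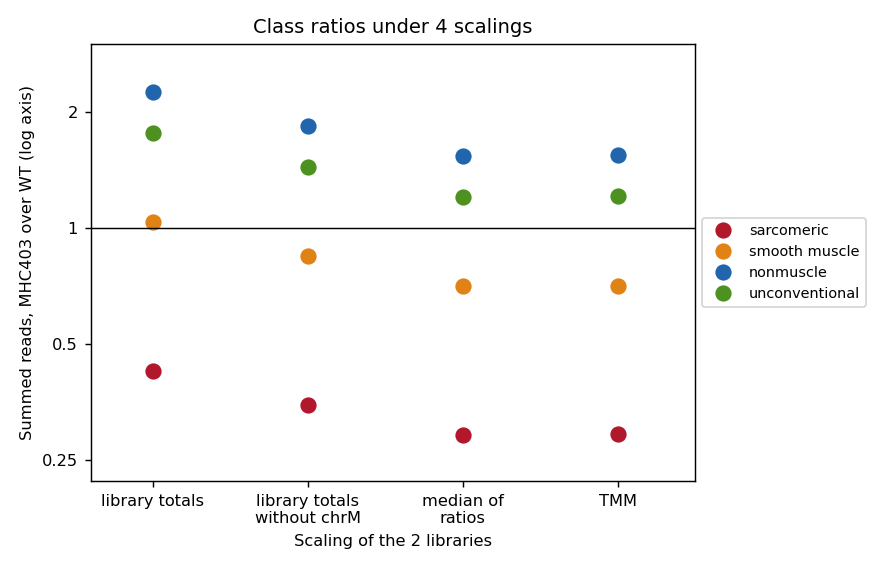
Points give the ratio of summed reads (MHC403 over WT, log axis) of each myosin class under library totals, library totals without mitochondrially encoded entries, median-of-ratios scaling and TMM scaling. The sarcomeric ratio lies between 0.425 and 0.291, the nonmuscle ratio between 2.25 and 1.54, and Myh11, the smooth muscle class, changes side of 1.

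Myh6 (alpha chain, chromosome 14, 55560758 to 55585444, mm9) and Myh7 (beta chain, chromosome 14, 55589525 to 55613386) are neighbours on the same strand and together made up most myosin reads. Myh6 had 10089 RPM (reads scaled to the library total) in MHC403, against 24259 in WT. Myh7 had 4235 RPM in MHC403, against 9352 in WT. Both were thus lower in MHC403 by similar factors, Myh6 by 2.40-fold (2.38 to 2.43) and Myh7 by 2.21-fold (2.17 to 2.24). The balance of the reads listed under them moved little. Myh7 was 29.6% (29.2 to 29.9) of the Myh6 and Myh7 reads in MHC403 and 27.8% (27.6 to 28.0) in WT. Per 100 Myh6 reads there were 42.0 of Myh7 in MHC403 and 38.6 in WT, a ratio of 1.09 (1.07 to 1.11), which does not depend on scaling. The words the pair share, described above, make the division of reads between them uncertain. Reads listed under both genes would draw their ratios toward each other, and whether any were is not known. The balance of their transcripts may therefore have moved more than that of the reads. Cardiac troponin T, Tnnt2, a thin filament gene of the same cells, had 61930 reads in MHC403 and 58949 in WT, a ratio of 1.05. Per 100 Tnnt2 reads there were 89.1 of Myh6 in MHC403 and 226 in WT, and 37.4 of Myh7 in MHC403 and 87.0 in WT. Tnnt2 was 1 of 7 cardiomyocyte markers looked at, and of the others only Ryr2 was near its ratio. Troponin I, Tnni3, had 14349 reads in MHC403 and 24724 in WT (1.72-fold lower), and phospholamban, Pln, had 4578 and 8938 (1.95-fold lower). Cardiac actin, Actc1, had 30038 reads in MHC403 and 16307 in WT (1.85-fold higher). Ryr2 had 5236 in MHC403 and 5185 in WT, a ratio of 1.01 (0.974 to 1.05). Lower reads against Tnnt2 were therefore not particular to the myosins. These are bulk hearts, in which fewer cells of a type and less RNA per cell cannot be told apart.

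Myh7b (chromosome 2, 155436948 to 155460043) is an old slow-type sarcomeric myosin gene that hosts a microRNA in an intron. It had 168 reads in MHC403, against 666 in WT, and was 3.96-fold lower (3.33 to 4.71). This was the lowest ratio of the 26 measured myosins and rank 34 from the lowest of all 9507 measured entries. Against the reads of Myh6 plus Myh7 it was also lower, at 0.214 per 100 in MHC403 and 0.362 in WT, a ratio of 0.593 (0.498 to 0.704). The 3 slow-type or cardiac genes each carry a microRNA, and these form one family in muscle. Their mature forms are shown because of the shared seed (bases 2 to 8, in capitals), from RefSeq with GRCm38.p6 positions chr14:54949072-54949093 (minus strand, in Myh6), chr14:54975710-54975731 (minus strand, in Myh7) and chr2:155622893-155622913 (plus strand, in Myh7b).
mmu-miR-208a-3p: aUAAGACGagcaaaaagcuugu
mmu-miR-208b-3p: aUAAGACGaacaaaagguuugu
mmu-miR-499-5p: uUAAGACUugcagugauguuu
The seeds of miR-208a and miR-208b are the same, and that of miR-499 differs from them in its last base. The table lists an entry for each hairpin. Mir208b, inside Myh7, had 1 read in MHC403 and 23 in WT, Mir208a, inside Myh6, had 2 and 2, and Mir499, inside Myh7b, had 0 and 0. PolyA libraries do not capture mature microRNAs, so these are not taken as reads of the mature forms. Where they fell, and whether they cross the hairpin, is not known.

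The genes named for skeletal muscle form a cluster on chromosome 11 and were all lower in MHC403. Myh4 (type IIb fibres, 67051227 to 67073948) had 132 reads in MHC403 and 393 in WT and was 2.97-fold lower (2.43 to 3.65). Myh1 (type IIx fibres, 67013616 to 67038077) had 80 in MHC403 and 288 in WT and was 3.59-fold lower (2.79 to 4.66). These were the larger differences within the cluster. Myh8, the perinatal chain, had 111 reads in MHC403 and 262 in WT, 2.36-fold lower (1.88 to 2.97). Myh2, of type IIa fibres, had 72 in MHC403 and 181 in WT, 2.51-fold lower (1.90 to 3.34). The entries of Myh2 (66984529 to 67093535) and Myh8 (66984529 to 67122135) begin at the same position and have overlapping windows. Some of their reads may therefore be listed under both. Both spans also contain the entries of Myh1 and Myh4, whose listed windows overlap no other entry. Whether reads of Myh1 or Myh4 were also listed under Myh2 or Myh8 is not known. Myh13, the extraocular muscle chain, had 94 in MHC403 and 217 in WT, 2.30-fold lower (1.80 to 2.97). Myh3, the embryonic chain, had 54 in MHC403 and 117 in WT, 2.16-fold lower (1.55 to 3.04). The 6 together had 543 reads in MHC403 and 1458 in WT, 2.68-fold lower (2.43 to 2.96). The division of reads among them is uncertain, since 35.4% of the 36-base words of Myh1 occurred in another myosin, 35.0% of Myh2, 28.7% of Myh8, 26.5% of Myh4, 11.9% of Myh13 and 8.54% of Myh3. Myh15 had 0 reads in both libraries.

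Set against the cardiac chains, most of this group kept a like proportion. There were 0.693 reads of the 6 genes per 100 reads of Myh6 plus Myh7 in MHC403 and 0.791 in WT, a ratio of 0.876 (0.792 to 0.968). Myh1 (0.653, 0.503 to 0.840) and Myh4 (0.790, 0.643 to 0.965) were lower on this scale, and the intervals of the other 4 held 1. Of the 7 skeletal muscle marker genes looked at, 2 were measured. Genes of fast fibres had few reads. Tnnt3 had 24 in MHC403 and 1 in WT, Tnni2 had 4 and 4, and Tnnc2 had 5 and 0, while Pvalb had 2 and 0. Actn3 had 18 in MHC403 and 15 in WT. The marker list summed to 7396 reads in MHC403 and 13012 in WT, nearly all from Ckm (7066 in MHC403 and 12865 in WT), which heart muscle also expresses, and Myot was 2.19-fold higher (1.77 to 2.72). Reads of Myh6 or Myh7 listed under these genes were not tested as a share of their counts.

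**Figure D4:**
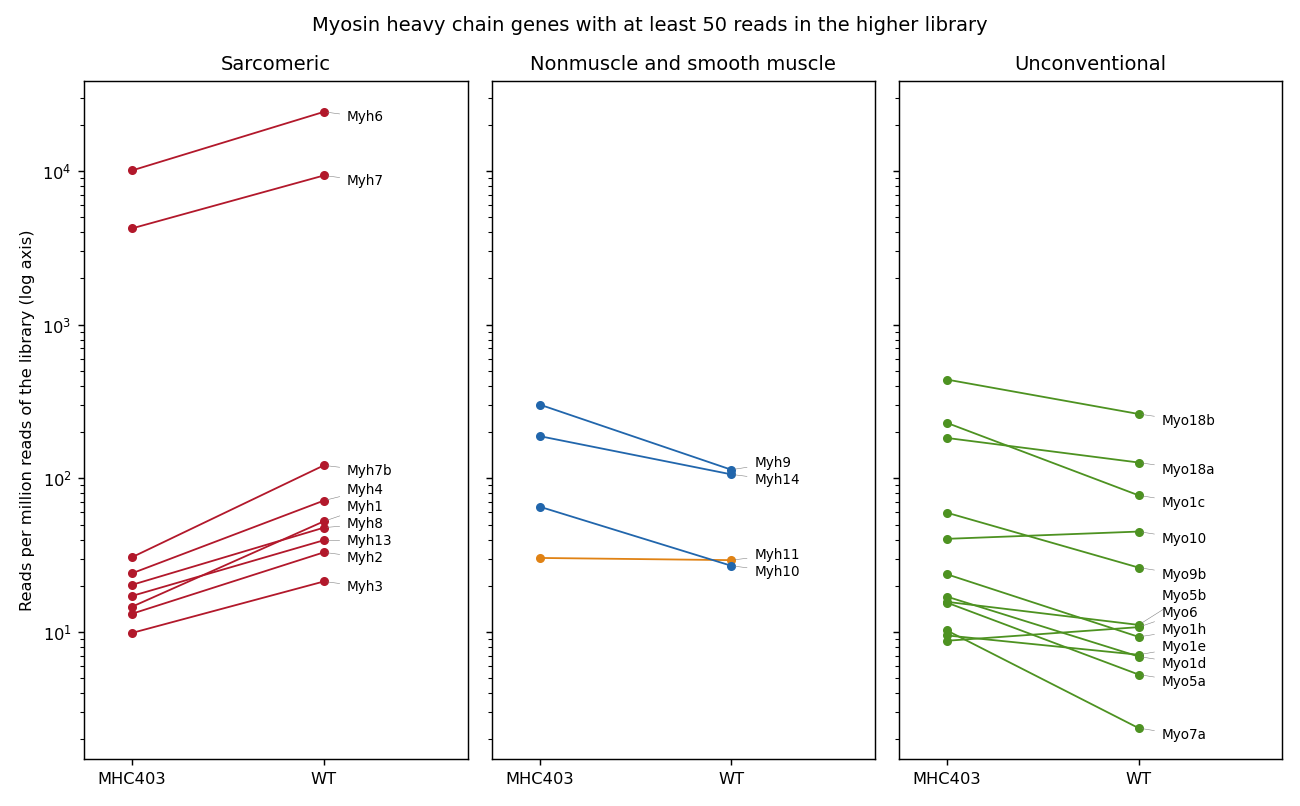
Lines join the RPM (log axis) of each measured myosin gene reported here in the MHC403 library (left of each panel) and the WT library (right), 1 library each. Myh6 and Myh7 lie far above the rest, all sarcomeric genes are lower in MHC403, and Myh9, Myh10 and Myh14 are higher.

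The promoters of the genes that lead each group differed in composition, and 3 are shown because sarcomeric and nonmuscle genes differed in direction. They are RefSeq windows on GRCm38.p6 from 250 bases before to 50 after the annotated start, for Myh6 (chr14:54966558-54966857, minus strand), Myh7 (chr14:54994577-54994876, minus strand) and Myh9 (chr15:77842126-77842425, minus strand). Capitals mark TATAAA (the box of that name), CATTCC (the core of the muscle element that TEAD factors bind) and GGGCGG (known as the GC box), on either strand.
Myh6: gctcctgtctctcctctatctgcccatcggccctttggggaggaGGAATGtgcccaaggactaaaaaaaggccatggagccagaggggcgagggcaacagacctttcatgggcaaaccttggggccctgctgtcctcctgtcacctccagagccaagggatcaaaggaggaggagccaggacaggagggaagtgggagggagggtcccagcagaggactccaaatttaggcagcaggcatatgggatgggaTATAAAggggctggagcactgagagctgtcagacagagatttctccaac
Myh7: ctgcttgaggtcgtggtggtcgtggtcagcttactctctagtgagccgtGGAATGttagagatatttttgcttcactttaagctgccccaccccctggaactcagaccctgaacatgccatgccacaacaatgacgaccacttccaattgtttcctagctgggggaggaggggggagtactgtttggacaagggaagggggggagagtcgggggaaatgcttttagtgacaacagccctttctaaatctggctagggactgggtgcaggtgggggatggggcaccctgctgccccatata
Myh9: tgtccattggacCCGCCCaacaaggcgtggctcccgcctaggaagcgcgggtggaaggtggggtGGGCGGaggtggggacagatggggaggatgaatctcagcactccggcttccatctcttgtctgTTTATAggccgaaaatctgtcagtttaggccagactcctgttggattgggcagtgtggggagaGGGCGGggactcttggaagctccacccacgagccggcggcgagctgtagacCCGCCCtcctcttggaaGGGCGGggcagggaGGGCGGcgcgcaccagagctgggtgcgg
Counting the annotated start as base 1, the CATTCC match begins at -206 in Myh6 and -201 in Myh7. RefSeq gives a second Myh7 window, not printed, that held none of the 3 motifs. In Myh6 the TATAAA match begins at base 2, so the RefSeq start used here lies upstream of the position such a box usually directs. Myh9 held GGGCGG at -238, -186, -60, -9, 9 and 23 and TATAAA at -123. Among 11 promoter windows of the 10 sarcomeric genes, TATAAA was in 7, CATTCC in 5 and GGGCGG in 1. Among 3 windows of the 3 nonmuscle genes these were in 1 (Myh9), 1 (Myh10) and 2 (Myh9 and Myh14). Among 26 windows of 20 unconventional genes these were in 2, 4 and 16. Of 32851 mouse promoter windows of the same length, 13.6% held TATAAA, 14.7% CATTCC and 35.7% GGGCGG. Median GC content was 48.0% in the sarcomeric windows, 64.7% in the 3 nonmuscle windows, 58.7% in the unconventional ones and 52.7% in all. A match is a string of letters and does not show that a factor binds.

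Myh11 (chromosome 16, 14194620 to 14291501), the heavy chain of smooth muscle, had 166 reads in MHC403 and 161 in WT, a ratio of 1.03 (0.827 to 1.29). Its direction turned with scaling, to 1.41-fold lower with median-of-ratios. A second entry, mKIAA0866, covers the same windows and had 19 reads in MHC403 and 16 in WT. Of 7 smooth muscle markers 5 were measured and 3 were at least 2-fold higher, or 2 when scaled by median-of-ratios. Over all measured entries these calls took 26.1% and 10.9%. The list summed to 37905 reads in MHC403 and 8167 in WT. Most of that sum was desmin, Des (36131 in MHC403 and 7114 in WT), which cardiomyocytes also express. Acta2, smooth muscle actin, had 693 in MHC403 and 236 in WT, and Tagln had 335 and 156. Smoothelin, Smtn, was at 530 in MHC403 and 464 in WT, so the markers did not share one ratio.

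The 3 nonmuscle myosin II chains build contractile filaments at the cell cortex, in stress fibres and in the cytokinetic ring, and were higher in MHC403. Myh9 (chain IIA, chromosome 15, 77591019 to 77672545) had 1653 reads in MHC403 and 624 in WT and was 2.66-fold higher (2.42 to 2.92). Myh10 (chain IIB, chromosome 11, 68505417 to 68630126) had 358 in MHC403 and 148 in WT and was 2.42-fold higher (2.00 to 2.96). Myh14 (chain IIC, chromosome 7, 51861190 to 51926213) had 1030 in MHC403 and 582 in WT and was 1.77-fold higher (1.60 to 1.97), within 2-fold. The counting interval of Myh14 did not overlap that of Myh9 or Myh10. Myh9 took 54.4% of nonmuscle reads in MHC403 and 46.1% in WT, Myh14 33.9% and 43.0%, and Myh10 11.8% and 10.9%. With median-of-ratios scaling the ratios were 1.82 for Myh9, 1.66 for Myh10 and 1.21 for Myh14, each still above 1.

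Fibroblast and leukocyte markers were higher as well. Of 7 fibroblast markers, all measured, 6 were at least 2-fold higher, with 17566 reads in MHC403 and 2517 in WT. Of 8 macrophage and leukocyte markers 6 were measured and all 6 were at least 2-fold higher, with 1374 reads in MHC403 and 422 in WT. The same rule called 26.1% of all measured entries higher and 2.43% lower. All 6 endothelial markers were within 2-fold, with 2378 reads in MHC403 and 1950 in WT. No marker of these 3 lists was at 0 in either library. Cardiomyocyte markers, 7 of 7 measured, summed to 164121 reads in MHC403 and 218882 in WT, with 1 at least 2-fold lower (Myl2) and 6 within. Median-of-ratios scaling put 4 of the 7 at least 2-fold lower (Myl2, Myl3, Pln and Tnni3), and left 5 fibroblast and 3 macrophage and leukocyte markers at least 2-fold higher and 1 endothelial marker at least 2-fold lower. Over all measured entries that scaling called 10.9% higher and 7.59% lower. The part of these cells in the nonmuscle and unconventional myosin ratios was not tested.

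The unconventional myosins were led in reads by class XVIII, which has lost most motor activity and binds actin. Myo18b, a striated muscle form needed for myofibril assembly in mouse heart, had 2403 reads in MHC403 and 1438 in WT and was 1.67-fold higher (1.57 to 1.79). Myo18a, the widely expressed form, had 1002 in MHC403 and 695 in WT and was 1.45-fold higher (1.31 to 1.59). Neither passed 2-fold, and with median-of-ratios scaling Myo18a was at 0.989. The pair made up 57.3% of unconventional reads in MHC403 and 63.2% in WT. Myo18b was thus higher in MHC403, a little above the 1.48-fold median of all measured entries, whereas the sarcomeric chains were lower.

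Class I myosins are single-headed motors that link membranes to actin. Myo1c, which serves in exocytosis and membrane tension, had 1256 reads in MHC403 and 425 in WT and was 2.96-fold higher (2.65 to 3.31). Its share of unconventional reads was 21.1% in MHC403 and 12.6% in WT, and it was past 2-fold with median-of-ratios scaling as well. Myo1h had 130 in MHC403 and 51 in WT, 2.55-fold higher (1.83 to 3.60). Myo1d, a motor known in left-right asymmetry of flies, had 93 in MHC403 and 38 in WT, 2.45-fold higher (1.67 to 3.68). Myo1e, found at endocytic sites, had 52 in MHC403 and 39 in WT, a ratio of 1.34 (0.865 to 2.08). Myo1f and Myo1g, known from blood cells, were below the minimum, with 24 reads in MHC403 and 9 in WT for Myo1f and 21 and 5 for Myo1g. The class summed to 1613 reads in MHC403 and 620 in WT, 2.61-fold higher (2.38 to 2.87).

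Among vesicle carriers of class V, Myo5a had 85 reads in MHC403 and 29 in WT and was 2.94-fold higher (1.91 to 4.65), and its windows overlap those of a second, low entry on chromosome 9 named for Myo5b. Myo5b itself had 86 in MHC403 and 61 in WT, a ratio of 1.41 (1.01 to 2.00). Myo5c, the epithelial form, had 9 in MHC403 and 16 in WT. Myo9b, a motor that carries a RhoGAP domain, had 327 in MHC403 and 144 in WT and was 2.28-fold higher (1.87 to 2.79), and Myo9a had 48 and 33, below the minimum. Myo7a, known for its role in hair cell stereocilia, had the highest ratio of the measured myosins at 4.32 (2.33 to 8.61), but rested on 56 reads in MHC403 and 13 in WT. Myo10, the filopodial motor, had 221 in MHC403 and 247 in WT, a ratio of 0.897 (0.745 to 1.08), and its windows overlap those of another entry. Myo6, which moves toward the minus end of actin, had 48 in MHC403 and 59 in WT, a ratio of 0.815 (0.545 to 1.21). With library totals the intervals of Myo10 and Myo6 held 1, so no lower level was detectable with that scaling. With median-of-ratios scaling the ratios were farther below 1, at 0.614 for Myo10 and 0.558 for Myo6, so this reading depends on scaling. Myo19, a motor on mitochondria, had 26 in MHC403 and 13 in WT. Of the 13 measured unconventional myosins, 6 were at least 2-fold higher and 7 within 2-fold, where the same rule called 26.1% of all measured entries higher. With median-of-ratios scaling 3 were called higher and 1 lower, against 10.9% and 7.59% of all measured entries. The 5 entries Myo15, Myo16, Myo1a, Myo3a and Myo3b had 0 reads in both libraries, Myo15b had 2 in MHC403 and 0 in WT, and Myo7b had 0 and 4. A count of 0 allows up to 0.549 RPM in MHC403 and 0.547 in WT (3 counts per library).

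Partners of the sarcomeric chains had ratios on either side of 1. Of 15 genes for light chains and thick filament proteins, 8 were measured. Of these 1 passed 2-fold upward, 1 downward and 6 neither, where the same rule called 26.1% of all measured entries higher and 2.43% lower. The median log2 ratio was 0.06, against 0.57 over all measured entries. With median-of-ratios scaling 2 were at least 2-fold lower, Myl2 and Myl3, where 7.59% of all measured entries were. The median was then -0.49, against 0.02. The ventricular regulatory light chain Myl2, which binds the Myh6 and Myh7 necks, had 36100 reads in MHC403 and 86531 in WT and was 2.39-fold lower (2.36 to 2.42). The essential light chain Myl3 had 11890 in MHC403 and 18248 in WT, 1.53-fold lower. Myl2 was thus near the ratio of Myh6, and Myl3 less far from 1. Myomesin 1, Myom1, an M-band protein, had 4546 in MHC403 and 3341 in WT, a ratio of 1.36 (1.30 to 1.43). Mybpc2, the myosin binding protein of fast fibres, had 324 in MHC403 and 107 in WT and was 3.03-fold higher (2.43 to 3.81). Cardiac myosin binding protein C, titin and obscurin were all within 2-fold. Of 5 myosin folding factors 4 were measured, and 1 of the 4 was at least 2-fold higher, against 26.1% of all measured entries. This was the chaperone Hsp90aa1, with 884 reads in MHC403 and 415 in WT (2.13-fold, 1.90 to 2.40, and under 2-fold with median-of-ratios). Its partner Unc45b, a muscle chaperone of myosin heads, had 509 in MHC403 and 555 in WT, a ratio of 0.919 (0.813 to 1.04). The methyltransferase Smyd1 had 1181 in MHC403 and 1502 in WT, 1.27-fold lower (1.18 to 1.37), and Hsp90ab1 had a ratio of 1.36 (1.31 to 1.42).

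Several light chains of the nonmuscle and smooth muscle type were higher, as the nonmuscle heavy chains were. Of 13 listed genes for these chains and for regulators of myosin light chains 12 were measured. Of these 5 passed 2-fold upward, 1 downward and 6 neither, where the same rule called 26.1% of all measured entries higher and 2.43% lower. The median log2 ratio was 0.68, near the 0.57 of all measured entries. With median-of-ratios scaling it was 0.13, against 0.02. Myl6, the essential light chain, had 2047 reads in MHC403 and 740 in WT and was 2.77-fold higher (2.55 to 3.02). Myl9, a regulatory light chain, had 507 in MHC403 and 134 in WT and was 3.79-fold higher (3.13 to 4.62). Myl6b had 108 in MHC403 and 26 in WT, 4.16-fold higher (2.69 to 6.66). The light chain kinase Mylk4 was lower, with 12 reads in MHC403 and 105 in WT. The list does not separate kinases by the type of light chain they act on. With median-of-ratios scaling 2 of these genes were at least 2-fold higher and 1 lower, where 10.9% and 7.59% of all measured entries were. Of 16 transcription factors known to act on Myh genes 11 were measured. Among these 1 was past 2-fold, upward, where the rule called 26.1% of all measured entries higher and 2.43% lower. It was serum response factor Srf, with 1029 reads in MHC403 and 407 in WT (2.53-fold, 2.26 to 2.85). Gata6 had a ratio of 1.89 (1.59 to 2.25), Mef2d of 1.74 (1.55 to 1.96) and Gata4 of 1.56 (1.36 to 1.79). The list's median log2 ratio of 0.49 was below the 0.57 of all measured entries. With median-of-ratios scaling none of its genes was at least 2-fold higher and 1 was at least 2-fold lower, against the same 10.9% and 7.59%.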

How the data were processed

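Heart polyA RNA of 2 pooled libraries, 1 per genotype, was profiled. Intact RNA was used without fragmentation, with size selection and linear amplification, per the labels' protocols. Per the submitters' processing notes, TopHat 1.0.14 and mm9 were used. Not given in the sources used here were read length, counting program, and its treatment of strand and of multiply matching reads.

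The authors deposited whole-number read counts per gene without normalization, per the file headers. Normalized reads were also deposited, which are RPM, scaled to the sum over all listed entries. The fold column the authors deposited is the ratio of those values (MHC403 to WT) and equalled the ratio computed here in all 26 measured genes. A p-value per gene was deposited by the authors and not used, as its test is unstated. A whole-number score for start sites was also deposited by the authors, with an unstated formula. Reads are not counted from the listed windows alone, since Myh11 and mKIAA0866 list the same windows with different counts.

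Counts were scaled to library totals and given as a ratio with an exact (Clopper-Pearson) 95% interval conditional on the reads of both libraries. A ratio between genes set against each other had the conditional exact interval of an odds ratio. At 50 reads in each library this runs from 0.664 to 1.51. With 1 library per genotype no test was made, and 2-fold was used as a fixed size. A myosin gene at 0 reads in 1 library got no ratio, at counts this low. For the shares called, medians and ranks over all measured entries, 0 reads were replaced by 3. Alternatives were DESeq2 1.42.0 median-of-ratios and edgeR 4.0.16 TMM factors in R 4.3.3, totals without 38 mitochondrially encoded entries, minima of 20, 200 and no reads, overlapping entries left out (7 members), other denominators and classes, and reads per transcript length, the last chosen after seeing the data. The ratio and interval were tested on simulated counts. Python 3.11.15, SciPy 1.17.1, pandas 2.3.3 and NumPy 2.4.6 were used. The measured myosin genes were named, apart from a result that is not reported here, and of each companion list up to 4 measured genes whose interval lay farthest from 1. Other list genes were named for their part in a count or sum, after their values were seen. Members and lists were chosen with earlier results of these data known. Shared words were counted in the longest coding transcript of each gene in GENCODE M21 on GRCm38, used for sequence alone. Promoters of 33 member genes matched RefSeq windows.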

Additional observations from a re-analysis of the deposited data

How the results depend on the processing

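No paired analysis was possible because each genotype had 1 pooled library, and for the same reason no library could be left out. No called ratio changed sign under any alternative run. This was fixed in advance, since no scaling moved a log2 ratio by more than 0.55, which is less than a 2-fold call. It is therefore no check of the calls. The count of myosins at least 2-fold higher was 8 with library totals, 3 with median-of-ratios or TMM scaling and 4 with a minimum of 200 reads. The count at least 2-fold lower stayed within 1.5 times of 9. For summed reads, median-of-ratios, TMM and totals without mitochondrially encoded entries gave 0.291, 0.291 and 0.347 for the sarcomeric class (0.425 with library totals), 1.54, 1.54 and 1.84 for the nonmuscle class (2.25) and 1.21, 1.21 and 1.44 for the unconventional class (1.76). Myh11 was at 0.707 and 0.708 with median-of-ratios and TMM (1.03). The sarcomeric class was at 0.336 without Myh6 and Myh7. Medians of measured members were 0.416, 2.42 and 1.67 for the sarcomeric, nonmuscle and unconventional classes. By construction, shares of myosin reads are free of scaling. Without entries whose windows overlap, the sarcomeric share was 90.1% in MHC403 and 97.7% in WT, and the unconventional share 6.39% and 1.62%. That run kept Myh1 and Myh4. Without Myh6 and Myh7 reads in the denominator, sarcomeric shares were 7.21% in MHC403 and 30.3% in WT, smooth muscle 1.68% and 2.29%, nonmuscle 30.9% and 19.3%, and unconventional 60.3% and 48.1%. Of all library reads they were 1.45% in MHC403 and 3.40% in WT (sarcomeric), 0.00304% and 0.00294% (smooth muscle), 0.0556% and 0.0247% (nonmuscle) and 0.109% and 0.0616% (unconventional). With Myh11 added, the nonmuscle share was 3.64% in MHC403 and 0.792% in WT. Per transcript length, shares were 90.6% in MHC403 and 97.8% in WT (sarcomeric), 3.01% and 0.621% (nonmuscle) and 6.24% and 1.54% (unconventional). The cause of these moves was not tested beyond what each alternative changes by construction. Of the 26 measured genes, 20 left their counting interval with median-of-ratios scaling, and Myh11, Myo18a, Myo5b and Myo1e changed direction there and with TMM. Depth limits the 14 genes below 50 reads, for which differences were not read.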

Other observations

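The authors' deposited table gives a start-site score above 0 for 10 of the 26 measured myosins (38.5%), against 3444 of 9507 measured entries (36.2%). In the authors' deposited table the myosin scores include 39 for Myo18a, 34 for Myo1c and 31 for Myh10, with Myh7 at 23, Myh9 at 21, Myh14 at 20, Myh6 at 15, Myh7b at 14 and Myo18b at 5. Without the formula of the score these values describe the ranking of the authors and no change of start site was read from them.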
